A study of Homo sapiens with 12 samples.

Results

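The genes described are 10 regulators of RAS: the adaptors GRB2 and SHC1, the phosphatase PTPN11, the exchange factors SOS1 and SOS2, the GTPase-activating proteins NF1, RASA1 and RASA2, and the RAS-pathway inhibitors SPRED1 and SPRED2. They were chosen by gene symbol, with earlier results of these data known. All 10 were found among the 12931 rows that each of 12 libraries lists. Across the 3 groups of the study, SHC1 was higher in both inhibitor-diet groups than in control, SOS1 was lower in one of them and higher in the other, NF1 and RASA1 were highest in the group named R2, and SPRED1 was lowest there. GRB2, PTPN11, SOS2 and RASA2 did not pass the test in any of the 3 comparisons.

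RAS proteins are switches that signal while they hold GTP. Growth factor receptors recruit SHC1 and GRB2, GRB2 brings SOS1 or SOS2 to the membrane, and the SOS proteins load RAS with GTP. PTPN11, the phosphatase SHP2, is needed for full activation downstream of most receptors. NF1 (neurofibromin), RASA1 (p120 RasGAP) and RASA2 make RAS hydrolyse its GTP and so switch it off, and SPRED1 and SPRED2 bring NF1 to the membrane. Loss of NF1 is a known driver of melanoma, and RASA2 and SPRED1 are also known as genes that melanomas lose.

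WM1366 is an established human cutaneous melanoma line, known for an activating NRAS mutation. The study concerns acquired resistance to combined MEK and CDK4/6 inhibition, and it describes xenografts that progressed, with 4 libraries from the control diet (control) and 4 each from R1 and R2, both on a diet with a MEK and a CDK4/6 inhibitor. What sets R1 apart from R2 is not stated, and it is not stated if replicates are different tumours, so p-values measure the spread between these libraries, which may be technical. The growth and treatment labels, control included, instead describe melanoma cells in culture medium with palbociclib, a CDK4/6 inhibitor, at 0.1 uM and PD0325901, a MEK inhibitor, at 1 nM. All libraries thus share 1 cell line, and whether mouse reads of the host were removed is not given in the sources used here.

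Values are normalised read counts, that is, reads per gene scaled by the authors to library size. Recovered reads in the listed genes ranged from 20003891 to 39009384 per library, and the fewest reads behind any value of the 10 genes were 363, for SOS2 in R1 replicate 3. Of 11 melanocyte lineage markers 4 were listed (MITF, PMEL, CSPG4 and MCAM), with summed values of 702 to 808 in R1, 850 to 996 in R2 and 862 to 967 in control, and the other 7 were not analysed here. Endothelial markers (4 of 7 listed) summed to 375 to 499 in R1, 126 to 157 in R2 and 133 to 172 in control. Fibroblast and pericyte markers (6 of 10 listed) summed to 514 to 670, 742 to 827 and 627 to 741, and the 1 leukocyte marker listed of 7, CSF1R, to 1.39 to 6.19, 0.349 to 0.688 and 1.12 to 3.18, in the same order. No listed marker was at 0 in all libraries of a group. The sums follow the genes of highest value, and members differed in direction. MCAM made most of the melanocyte sum (means of 614 in R1, 881 in R2 and 841 in control). In R1 against control MCAM and MITF fell, and PMEL and CSPG4 rose. TIE1 made most of the endothelial sum (394, 135 and 139), while EGFL7 was at 16.2, 0.00727 and 3.61. Against control, COL1A1 fell and FAP rose in R1, and LUM and PDGFRB fell and THY1 rose in R2. Mitochondrial genome transcripts took 1.99% to 3.12% of the signal in R1, 3.86% to 9.19% in R2 and 5.59% to 10.3% in control. The part of these differences in the results was not tested, and in bulk RNA fewer cells of a type and less RNA per cell cannot be told apart.

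A gene was called, or is said to have risen or fallen, at an adjusted p under 0.05 by limma over all 12931 genes. In R1 against control 3 of the 10 regulators were called, 2 up and 1 down, where 43.8% of all genes were called, 22.4% up and 21.4% down. In R2 against control 5 were called, 4 up and 1 down, against a background of 28.4% (13.6% up and 14.8% down). In R2 against R1 5 were called, 4 up and 1 down, against a background of 46.8% (22.8% up and 24% down). The share called was thus below the background in R1, above it in R2 and close to it between R1 and R2. These shares rest on 10 genes and were not tested against the background. The regulators and the gene lists below were chosen with earlier results known, so their shares are only a description. The groups did not overlap in 2, 5 and 5 of the 10 genes in these comparisons, as in 39.7%, 34.8% and 39.4% of all genes. The median absolute log2 fold change of the 10 genes was 0.20, 0.34 and 0.32, beside 0.345, 0.256 and 0.366 over all genes.

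**Figure D1:**
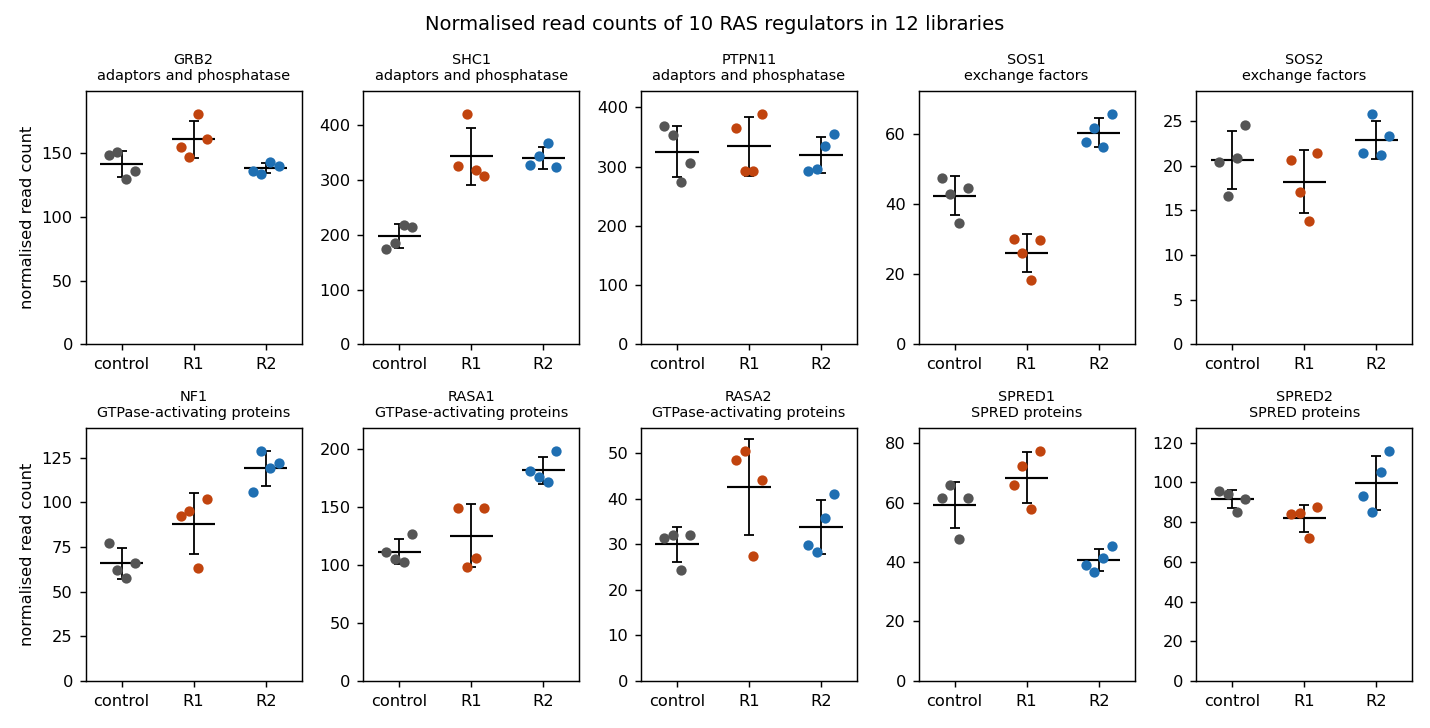
Normalised read counts of the 10 RAS regulators (vertical axes, each from 0) in the 4 control, 4 R1 and 4 R2 libraries. Points are libraries, horizontal lines are group means and bars are 1 SD. All 4 R1 values of SOS1 lie below and all 4 R2 values above the control values.

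Per kilobase of merged exons (GENCODE 29), SHC1 and PTPN11 had the highest levels in control, at 54.8 ± 5.98 and 50.7 ± 6.82 per kb (± SD, n = 4 libraries here and throughout), which lay within each other's spread. GRB2 followed at 35.0 ± 2.46, then RASA1 and SPRED2 at 22.3 ± 2.19 and 22 ± 1.1, again within their spread. The remaining 5 genes were at a lower level per kb, with SPRED1 at 7.61 ± 1.01, RASA2 at 5.33 ± 0.677, SOS1 at 4.97 ± 0.652, NF1 at 4.60 ± 0.595 and SOS2 at 3.75 ± 0.596. The spread of each of RASA2, SOS1, NF1 and SOS2 touched that of its neighbour in this order. In R1 SOS1 was the lowest of the 10 at 3.06 ± 0.634 per kb, beside SOS2 at 3.32 ± 0.638. In R2 RASA1, at 36.5 ± 2.41 per kb, lay beside GRB2 at 34.2 ± 1.01, and NF1 (8.33 ± 0.673) and SOS1 (7.09 ± 0.493) lay above SPRED1 (5.22 ± 0.483). These levels depend on the annotation that gives the lengths, since the one the authors counted on is not given in the sources used here.

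SHC1, the adaptor that receptors phosphorylate to recruit GRB2, was the one member of its group that rose, and it rose in both inhibitor-diet groups. Its normalised read counts were 174, 185, 218 and 214 in control replicates 1 to 4, 326, 421, 319 and 308 in R1, and 327, 345, 367 and 324 in R2. Every library of R1 and R2 thus lay above every control library, and R1 and R2 overlapped. The rise was 1.74-fold in R1 (log2 fold change 0.79, SE 0.12, adjusted p = 9.8e-05) and 1.72-fold in R2 (0.79, SE 0.12, adjusted p = 0.000169). Between R2 and R1 the log2 difference was 0.00, with a 95% interval from -0.25 to 0.25. The comparisons of R1 and R2 with control share the 4 control libraries, so the 2 rises are not separate observations of the control level. SHC1 lies on chromosome 1, 154962298 to 154974376 (GRCh38, RefSeq), on the minus strand. RefSeq holds 2 SHC1 pseudogenes, among which the authors' counting could divide reads.

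The promoter of SHC1 is shown because its transcript was higher in both groups. The sequence is the 250 bases before the outermost start of the gene (RefSeq, GRCh38.p14, chr1:154974377-154974626, minus strand, 5′ to 3′), with capitals marking matches to motifs searched on both strands. The motifs were an ETS site (letters CCGGAAG), the AP-1 site (TGANTCA), the GC box (GGGCGG), the E-box (CACGTG), the CRE (TGACGTCA), the palindromic NRF1 site, the CCAAT box (its own letters) and the TATA box (TATAAA).
SHC1 promoter: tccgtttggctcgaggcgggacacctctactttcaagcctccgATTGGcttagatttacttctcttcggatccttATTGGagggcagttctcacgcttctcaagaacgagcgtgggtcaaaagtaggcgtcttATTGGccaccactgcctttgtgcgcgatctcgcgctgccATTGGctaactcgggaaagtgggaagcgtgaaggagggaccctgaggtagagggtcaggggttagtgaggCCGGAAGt
It holds 4 CCAAT matches, all read here as ATTGG, and 1 ETS match that starts 8 bases before the start. A CCAAT match was present in 33.3% and the ETS match in 14.2% of the 13742 windows of this length at starts of listed genes. Its GC content was 55.2%, below the median of 64.4% for those windows. A window at another SHC1 start, 3629 bases further into the gene, held 1 AP-1, 2 GC box and 1 CCAAT match.

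GRB2, which links SHC1 and receptors to SOS, had normalised read counts of 130 to 151 in control, 147 to 181 in R1 and 134 to 143 in R2. The R1 libraries all lay above the R2 libraries, by 1.16-fold in the mean. GRB2 did not pass in R1 against control (log2 difference 0.18, 95% interval -0.01 to 0.38, adjusted p = 0.123), in R2 against control (-0.03, interval -0.23 to 0.16, adjusted p = 0.828) or in R2 against R1 (-0.21, interval -0.41 to -0.02, adjusted p = 0.0688). PTPN11, which codes for SHP2, had close group means, at 335 ± 50.1 (SD, n = 4) in R1, 319 ± 30.5 in R2 and 325 ± 43.8 in control. Its log2 difference from control had a 95% interval of -0.24 to 0.32 in R1 and -0.30 to 0.25 in R2 (adjusted p = 0.826 and 0.914). RefSeq holds 5 PTPN11 pseudogenes, so reads of PTPN11 carry the same uncertainty as those of SHC1. GRB2 lies on chromosome 17, 75318076 to 75405678, and PTPN11 on chromosome 12, 112418947 to 112509918 (GRCh38, RefSeq).

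SOS1, the main exchange factor that loads RAS with GTP, went in opposite directions in the 2 inhibitor-diet groups. Its normalised read counts were 47.4, 42.9, 34.5 and 44.7 in control replicates 1 to 4, 30.1, 26.0, 18.4 and 29.6 in R1, and 57.7, 61.7, 56.4 and 65.7 in R2. No library of any group overlapped with another group. SOS1 fell 1.63-fold in R1 (log2 fold change -0.71, SE 0.15, adjusted p = 0.00164) and rose 1.43-fold in R2 (0.51, SE 0.15, adjusted p = 0.019). R2 stood 2.32-fold above R1 (1.22, SE 0.15, adjusted p = 2.0e-05), a difference larger in size than that of 92.6% of all genes in this comparison and the largest among the 10 regulators. The rise in R2 against control did not pass without R2 replicate 4 (adjusted p = 0.0543) or without control replicate 3 (adjusted p = 0.0676), the library with the lowest SOS1 value in control. The fall in R1 and the difference between R2 and R1 passed under all 23 alternatives.

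SOS2, the paralog of SOS1 with the same exchange activity, did not pass the test. Its normalised read counts were 20.4, 16.6, 20.9 and 24.6 in control, 20.6, 17.1, 13.8 and 21.4 in R1, and 21.4, 25.8, 21.2 and 23.3 in R2. All 3 groups overlapped. The log2 difference was -0.18 in R1 against control (95% interval -0.51 to 0.15, adjusted p = 0.356), 0.16 in R2 against control (-0.17 to 0.48, adjusted p = 0.476) and 0.34 in R2 against R1 (0.01 to 0.67, adjusted p = 0.0827). SOS1 lies on chromosome 2, 38981549 to 39124868, and SOS2 on chromosome 14, 50117130 to 50231882 (GRCh38, RefSeq), both on the minus strand.

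The promoter of SOS1 is printed because this gene differed most between R2 and R1. It is the 250 bases before the outermost start (RefSeq, GRCh38.p14, chr2:39124869-39125118, minus strand, 5′ to 3′), with capitals for the same motifs.
SOS1 promoter: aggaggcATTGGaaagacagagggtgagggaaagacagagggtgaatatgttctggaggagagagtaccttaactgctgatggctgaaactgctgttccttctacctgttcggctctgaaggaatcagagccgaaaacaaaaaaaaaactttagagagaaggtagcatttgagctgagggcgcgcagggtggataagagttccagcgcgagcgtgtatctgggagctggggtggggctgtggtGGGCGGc
It holds 1 CCAAT match near its 5′ end and 1 GC box that starts 7 bases before the start, and its GC content was 52.4% with 8 CpG, beside a median of 20.0 CpG in windows of listed genes. The window of SOS2 had 76.8% GC, 34 CpG and 5 GC box matches. A GC box match was present in 63.3% of the windows of listed genes and in at least 1 window of 6 of the 8 regulators with a RefSeq window here; PTPN11 and RASA2 were not searched. A window at another SOS1 start, 3817 bases into the gene, held none of the 8 motifs.

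NF1, the largest of the RAS GTPase-activating proteins, was higher in both inhibitor-diet groups and highest in R2. Its normalised read counts were 77.5, 62.1, 57.6 and 66.1 in control replicates 1 to 4, 92.5, 95, 63.1 and 102 in R1, and 106, 129, 119 and 122 in R2. All R2 libraries lay above all others, while R1 replicate 3 lay inside the range of control. NF1 rose 1.81-fold in R2 (log2 fold change 0.86, SE 0.14, adjusted p = 0.000453) and was 1.35-fold higher in R2 than in R1 (0.45, SE 0.14, adjusted p = 0.0175). The rise in R1 was 1.34-fold (0.40, SE 0.14, adjusted p = 0.0333). That call was lost without R1 replicate 1, 2 or 4, without control replicate 2, 3 or 4, and with only R1 and control in the fit (adjusted p of 0.0578 to 0.101). NF1 lies on chromosome 17, 31094977 to 31377675 (GRCh38, RefSeq), plus strand, and EVI2A and EVI2B, both listed, lie inside its span. EVI2B fell in R1 (-2.91, adjusted p = 1.9e-05) and in R2 (-1.85, adjusted p = 0.00138), where NF1 rose. Whether the counting used strand is not given in the sources used here, so reads where genes overlap cannot be told apart. RefSeq holds 12 NF1 pseudogenes, none of them listed, so NF1 reads that match these copies are uncertain.

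The NF1 promoter is shown because NF1 had the largest rise against control among the 10 genes. It is the 250 bases before its start (RefSeq, GRCh38.p14, chr17:31094727-31094976, plus strand, 5′ to 3′), with capitals as above.
NF1 promoter: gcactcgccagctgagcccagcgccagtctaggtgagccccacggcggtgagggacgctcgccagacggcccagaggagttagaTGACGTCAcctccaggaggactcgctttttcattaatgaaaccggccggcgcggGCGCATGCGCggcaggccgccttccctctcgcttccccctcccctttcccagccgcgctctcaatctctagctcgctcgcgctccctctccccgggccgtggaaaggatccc
The capitals are 1 CRE match and 1 NRF1 match, starting 166 and 112 bases before the start. The CRE letters were present in 2.45% and the NRF1 letters in 1.64% of the windows of listed genes. GRB2 was the other regulator whose window held the NRF1 letters.

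RASA1, a GTPase-activating protein that binds phosphorylated receptors through SH2 domains, rose in R2. Its normalised read counts were 111, 105, 103 and 127 in control, 149, 98.2, 106 and 149 in R1, and 181, 176, 172 and 199 in R2. All R2 libraries exceeded all other libraries. The rise was 1.64-fold over control (log2 fold change 0.71, SE 0.14, adjusted p = 0.00137) and 1.45-fold over R1 (0.56, SE 0.14, adjusted p = 0.00401). In R1 against control RASA1 did not pass (0.15, 95% interval -0.14 to 0.44, adjusted p = 0.391), and R1 replicates 1 and 4 lay above control while replicates 2 and 3 did not. RASA1 lies on chromosome 5, 87267883 to 87391916 (GRCh38, RefSeq), and overlaps CCNH in RefSeq. CCNH did not pass against control in R2 (-0.33, adjusted p = 0.0869) and was lower in R2 than in R1 (-0.52, adjusted p = 0.00739). The RefSeq window for RASA1 starts within the gene and is not printed.

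RASA2, the third of these GTPase-activating proteins, had normalised read counts of 31.4, 32.1, 24.3 and 32.1 in control, 48.4, 50.5, 27.4 and 44.0 in R1, and 29.9, 28.2, 35.7 and 41.1 in R2. R1 replicates 1, 2 and 4 lay above all control and R2 libraries, and R1 replicate 3 did not. RASA2 narrowly missed the threshold in R1 (log2 difference 0.47, SE 0.18, adjusted p = 0.0505) and was called there in 9 of 23 alternatives, among them without R1 replicate 3 (0.67, adjusted p = 0.00269). In R2 it did not pass against control (0.16, 95% interval -0.23 to 0.55, adjusted p = 0.547) or R1 (-0.31, interval -0.70 to 0.08, adjusted p = 0.184). Without R1 replicate 3 it was lower in R2 than in R1 (-0.50, adjusted p = 0.0131). RASA2 lies on chromosome 3, 141487027 to 141615344 (GRCh38, RefSeq).

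SPRED1, which holds NF1 at the membrane next to RAS, was the one regulator that fell in R2. Its normalised read counts were 61.5, 65.9, 47.8 and 61.6 in control replicates 1 to 4, 66.1, 72.3, 57.8 and 77.5 in R1, and 39.0, 36.7, 41.3 and 45.5 in R2. All R2 libraries lay below all libraries of the other groups, and R1 and control overlapped. SPRED1 fell 1.46-fold in R2 against control (log2 fold change -0.53, SE 0.12, adjusted p = 0.00518) and was 1.68-fold lower in R2 than in R1 (-0.74, SE 0.12, adjusted p = 0.000258). Both calls held under all 23 alternatives. In R1 against control SPRED1 did not pass (0.21, 95% interval -0.06 to 0.47, adjusted p = 0.186). It lies on chromosome 15, 38252836 to 38357249 (GRCh38, RefSeq), plus strand.

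SPRED2, its paralog, had normalised read counts of 85.2 to 95.6 in control, 72.1 to 87.5 in R1 and 85.0 to 116 in R2, and the groups overlapped. It was 1.22-fold higher in R2 than in R1 (log2 fold change 0.27, SE 0.11, adjusted p = 0.0494), a call lost in 16 of 23 alternatives (adjusted p up to 0.159), which include leaving out any R1 library, any control library, or R2 replicate 1, 3 or 4. Neither difference from control passed (-0.16, 95% interval -0.39 to 0.07, and 0.11, interval -0.12 to 0.34). SPRED2 lies on chromosome 2, 65307175 to 65432599 (GRCh38, RefSeq). The SPRED1 promoter is printed as that of the gene that fell where NF1, RASA1 and SOS1 rose (250 bases before its start, RefSeq, GRCh38.p14, chr15:38252586-38252835, plus strand, 5′ to 3′, capitals as above).
SPRED1 promoter: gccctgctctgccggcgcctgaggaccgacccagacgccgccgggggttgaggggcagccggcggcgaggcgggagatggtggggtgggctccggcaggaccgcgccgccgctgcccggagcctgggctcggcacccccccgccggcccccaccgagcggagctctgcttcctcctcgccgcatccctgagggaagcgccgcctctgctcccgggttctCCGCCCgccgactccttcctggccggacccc
It holds 1 GC box match, 31 bases before the start, and 30 CpG at 78.4% GC, the highest GC content among the printed windows. No E-box letters were found in the windows of the 8 regulators searched, beside 8.32% of the windows of listed genes.

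**Figure D2:**
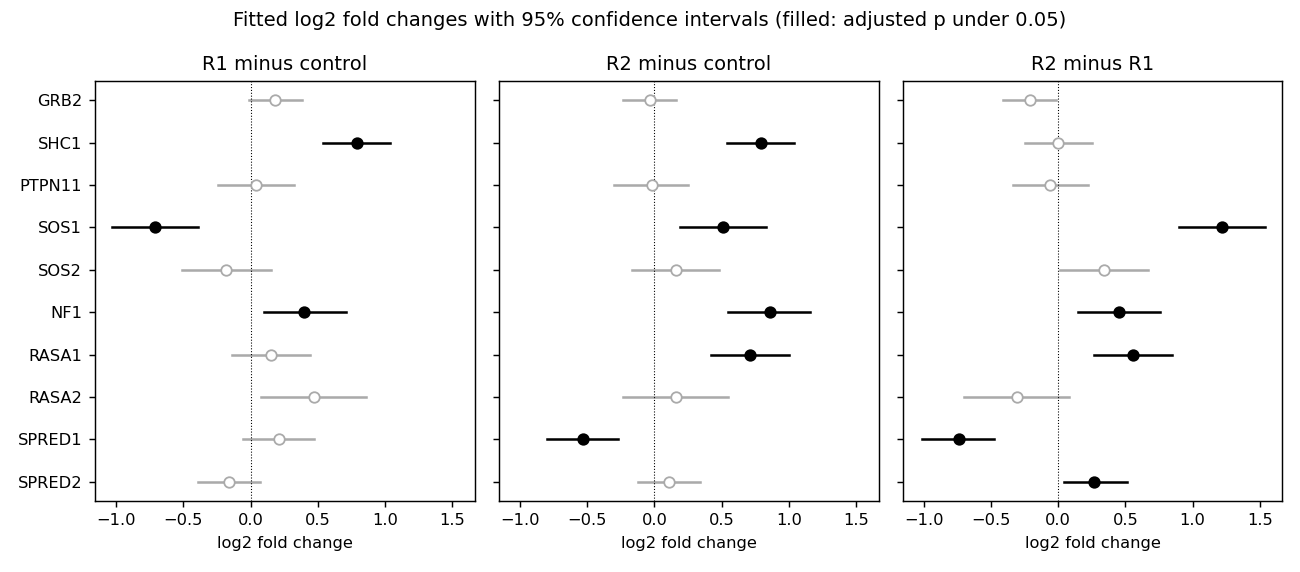
Log2 fold changes (horizontal axes, on the log2(value + 0.5) scale) of the 10 regulators in the 3 comparisons, from limma. Points are estimates and bars are 95% confidence intervals, with filled black points for an adjusted p under 0.05. SHC1 sits at 0.79 in both comparisons with control, while SOS1 lies at -0.71 in R1 and 0.51 in R2.

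Some libraries were low or high across the regulators. Control replicate 3 had the lowest control value of 8 of the 10 genes and the highest of SHC1. R1 replicate 3 had the lowest R1 value of 6 genes and the highest of GRB2. The authors' scaled values summed to 1086062 in control replicate 3 and 1035949 in R1 replicate 3, the largest sums of their groups, and the part of this in the results was not tested. R2 replicate 3, whose mitochondrial share of 3.86% was the lowest of R2, had the lowest R2 value of SOS1, SOS2 and RASA1 and the highest of GRB2 and SHC1. R2 replicate 4 had the highest R2 value of 6 genes, and R1 replicate 4 the highest R1 value of 5.

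Ratios of 2 genes within a library do not depend on how that library was scaled, and they are given as a description, without a test. The ratio of SOS1 to NF1 reads was 0.599 to 0.690 in control, 0.474 to 0.543 in R2 and 0.274 to 0.326 in R1, so that the 3 groups did not overlap. In R2 SOS1 was 1.43-fold and NF1 1.81-fold above control, and their ratio was below control. The ratio of SOS1 to RASA1 had the same order of means, 0.381 ± 0.0440 (SD, n = 4) in control, 0.331 ± 0.0141 in R2 and 0.210 ± 0.0388 in R1, with overlap between R2 and control. The ratio of SOS1 to its paralog SOS2 was 1.65 to 2.58 in control, 2.39 to 2.82 in R2 and 1.34 to 1.52 in R1, the last below every other library. The ratio of SPRED1 to SPRED2 was 0.786 to 0.885 in R1, 0.561 to 0.700 in control and 0.391 to 0.432 in R2, again without overlap. SHC1 stood at 1.17 to 1.67 times GRB2 in control, 1.76 to 2.88 times in R1 and 2.31 to 2.58 times in R2. The ratio of RASA2 to RASA1 was 0.236 to 0.307 in control, 0.160 to 0.207 in R2 and 0.258 to 0.514 in R1, where R1 replicate 2 was the highest.

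**Figure D3:**
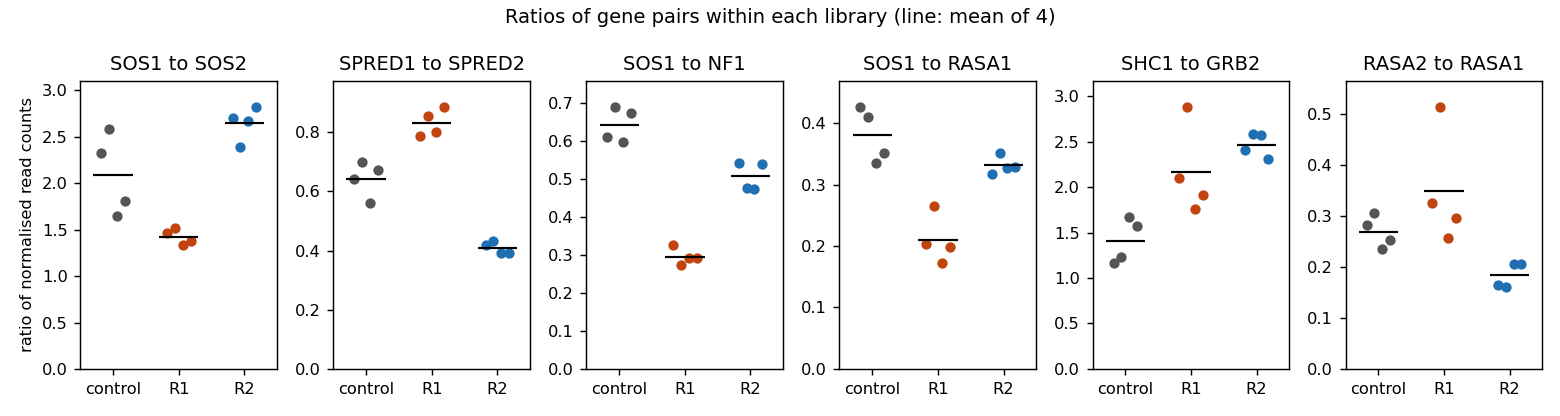
Ratios of normalised read counts of 6 gene pairs (vertical axes, each from 0) within each of the 4 control, 4 R1 and 4 R2 libraries, with lines at the group means. The ratios of SOS1 to NF1 and of SPRED1 to SPRED2 separate all 3 groups.

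The genes with the most similar pattern over the 12 libraries were found by the root mean square difference of log2 values after centring each gene, for the 6 regulators called in at least 1 comparison. For SHC1 they were MAST3 (difference 0.083, means of 18.8 in R1, 18.5 in R2 and 10.3 in control) and RP1-228H13.5 (0.126). SOS1 was closest to STRN (0.101, means of 26.5, 57.1 and 41.6 in the same order) and CCDC14 (0.106, means of 35.7, 85.0 and 61.2). NF1 was closest to NCOA3 (0.125) and NOTCH2 (0.135), and RASA1 to THOC2 (0.102) and RDX (0.124). SPRED1 was closest to ZBTB43 (0.133) and BRAP (0.134, means of 38.1 in R1, 25.5 in R2 and 34.3 in control), and SPRED2 to MKLN1 (0.071) and GJC1 (0.073). Against these differences, the patterns themselves had a root mean square size of 0.537 for SOS1, 0.397 for SHC1 and NF1, 0.354 for RASA1, 0.346 for SPRED1 and 0.166 for SPRED2.

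Listed genes that start within 1 Mb of a regulator showed how far its change was shared along the chromosome. Of 47 such genes around SHC1, 9 were called up and 6 down in R1 (median 0.09 on the log2 scale), and 5 up and 4 down in R2 (median -0.01). PYGO2, the nearest before SHC1 at 5 kb between starts, did not pass in either (0.26, adjusted p = 0.0647, and 0.11, adjusted p = 0.456). Around SOS1, 2 of 10 genes rose and 1 fell in R1, none of them as far down as SOS1 (lowest -0.34), and 0 of 10 were called in R2, where their highest value was 0.39. Between R2 and R1 these 10 genes ranged from -1.88 to 0.48, below the 1.22 of SOS1. Around NF1, 0 of 16 genes rose and 3 fell in R2, with 0.34 as the highest, below the 0.86 of NF1. The 3 genes near RASA1 had 0 calls in R2 against control, and 2 of them fell in R2 against R1, where RASA1 rose. Near SPRED1 there was 1 listed gene, FAM98B, at 201 kb. It fell in R2 as SPRED1 did (-0.64, adjusted p = 0.00276) and was lower in R2 than in R1 (-0.35, adjusted p = 0.0487). Around RASA2, which was not called itself, 6 of 9 genes rose in R1, where 22.4% of all genes rose. The median of the 9 was 0.44, beside the 0.47 of RASA2. The nearest on one side was ZBTB38 at 163 kb (0.03, adjusted p = 0.916). On the other side it was RNF7 at 251 kb (0.95, adjusted p = 8.5e-06), the highest of the 9.

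**Figure D4:**
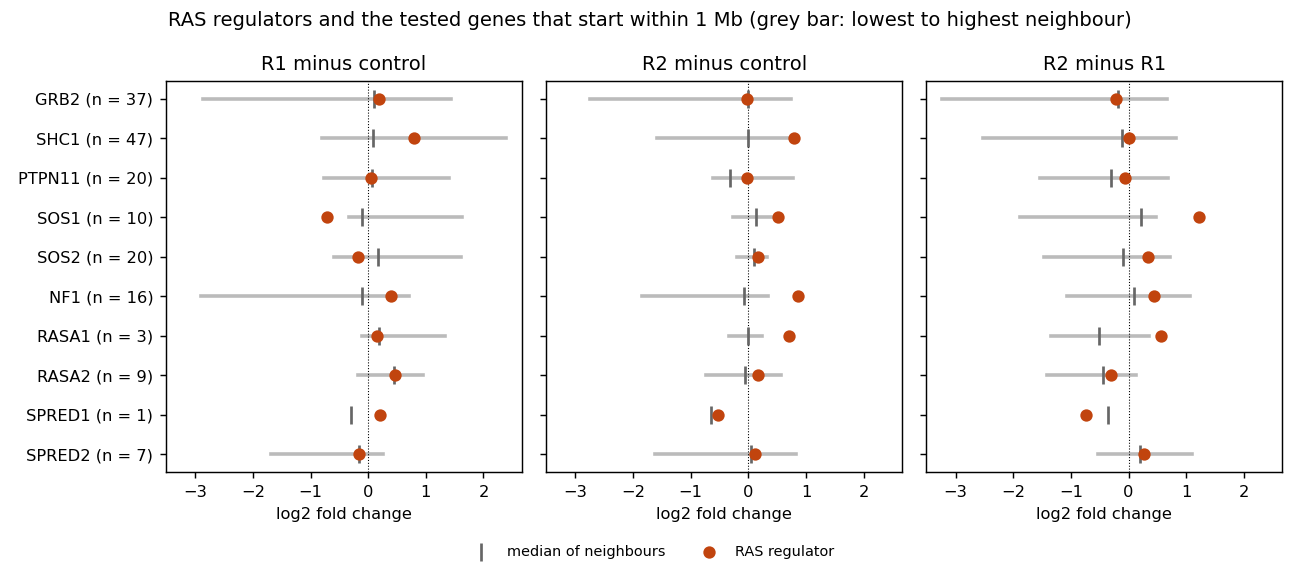
Log2 fold changes (horizontal axes) of each regulator (red points) and of the listed genes starting within 1 Mb of it (grey bars from the lowest to the highest, ticks at the median, n in brackets). SOS1 lies outside the range of its 10 neighbours in all 3 comparisons, and NF1 and RASA1 lie above theirs in R2 against control.

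Of 87 other RAS pathway genes on the lists used here 65 were listed, and the 6 RASGRP and RASGRF exchange factors were not analysed here. In R1 against control 15 rose and 19 fell (52.3% called, background 43.8%), in R2 against control 11 rose and 20 fell (47.7%, background 28.4%), and in R2 against R1 17 rose and 25 fell (64.6%, background 46.8%). Of the 7 RAS GTPases, which the 10 regulators act on, 2 rose and 2 fell in R1. NRAS rose there to 978 ± 109 (SD, n = 4) from 126 ± 12.6 (log2 fold change 2.95, adjusted p = 6.2e-10). In R2 2 rose and 1 fell, with RRAS2 at 52.9 ± 9.74 against 34.9 ± 2.94 (0.58, adjusted p = 0.00376).

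Among 3 further GTPase-activating proteins, RASA3 rose in R1, to 96 ± 7.96 from 76.2 ± 4.61 (0.33, adjusted p = 0.0134), and 0 were called in R2 against control. Of 12 other adaptors and docking proteins 3 rose and 4 fell in R1, and 2 rose and 3 fell in R2. DOK1, a docking protein that recruits RASA1, rose in both, to 7.81 ± 1.4 in R1 and 9.44 ± 1.45 in R2 from 4.45 ± 0.903 (adjusted p = 0.00291 and 0.000526). SHC3, a relative of SHC1, also rose in both at a low level, to 4.09 ± 1.48 in R1 and 1.65 ± 0.558 in R2 from 0.630 ± 0.200 (adjusted p = 3.5e-05 and 0.0164). Of 4 genes of the SHOC2 phosphatase complex, which frees RAF from inhibition, 1 was called in each comparison with control (25%, below both backgrounds). PPP1CB fell in R1 (-0.78, adjusted p = 5.4e-05) and SHOC2 rose in R2 (0.41, adjusted p = 0.0239).

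Of 6 genes for Sprouty and related brakes on RAS 1 rose and 1 fell in R1, and 2 rose and 1 fell in R2. SPRY1 fell in both, from 11.4 ± 4.04 to 5.15 ± 1.04 in R1 (adjusted p = 0.00272) and 2.5 ± 0.616 in R2 (adjusted p = 2.8e-05). SPRY4, at a higher level, rose in R1 to 139 ± 14.2 from 56 ± 5.6 (1.3, adjusted p = 4.0e-05). In R2 SPRY4 did not pass (-0.25, adjusted p = 0.307). Of 8 RAF, MEK and ERK kinases and KSR1, 3 rose and 1 fell in R1, where the scaffold KSR1 reached 15.2 ± 2.28 against 5.79 ± 0.592 (1.31, adjusted p = 8.4e-05). In R2 1 rose and 1 fell, with MAP2K1, the gene of MEK1, at 36.2 ± 1.03 against 69.4 ± 7.25 (-0.93, adjusted p = 2.9e-05). Of 13 genes known to be induced by ERK 4 rose and 2 fell in R1 (median 0.29), and 2 rose and 8 fell in R2 (median -0.61), beside medians over all genes of 0.014 and 0.027. PHLDA1, one of these, went from 534 ± 151 to 102 ± 9.27 in R2 (-2.35, adjusted p = 9.8e-07). Of 12 receptor tyrosine kinases upstream of SHC1 and GRB2, 1 rose and 7 fell in R1 (median -0.59), and 1 rose and 6 fell in R2 (median -0.35), among them PDGFRB, which is also on the pericyte marker list, at 0.331 ± 0.167 against 4.03 ± 2.02 in R2 (-2.34, adjusted p = 0.000297).

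**Figure D5:**
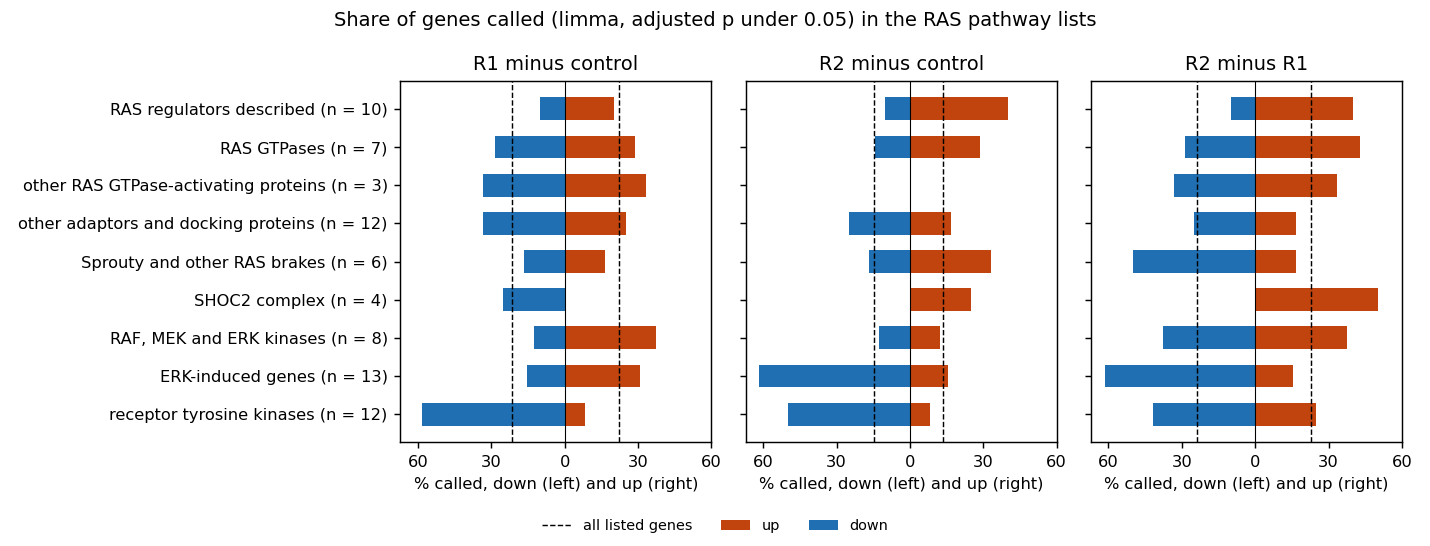
Share of genes called up (right of 0) and down (left of 0) among the 10 regulators and 8 lists of other RAS pathway genes in the 3 comparisons, as a percent of the listed genes of each (n in brackets). Dashed lines give the share of all 12931 genes called up and down. In R2 against control 4 of the 10 regulators are up and 1 is down, while 8 of the 13 ERK-induced genes are down.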

How the data were processed

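Each file holds 1 normalised signal value per gene symbol for 1 library, which the authors scaled by library size. STAR, GRCh38 and edgeR are named, per the submitters' processing notes; versions and the way reads were counted are not given in the sources used here. RNA was prepared with the RNeasy and TruSeq v2 kits, per the labels' protocols. In every library 100% of values were whole multiples of 1 step (tolerance 0.001 reads), which gave read numbers for depth and for count tests as alternatives.

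Values were compared as log2(value + 0.5) with limma 3.58.1 (R 4.3.3, empirical Bayes with a mean-variance trend) over 12 libraries and 3 group means, two-sided, adjusted by Benjamini-Hochberg over 12931 rows. Folds are ratios of means of the deposited values, without the 0.5. Alternatives included edgeR 4.0.16 (5645, 3564 and 5988 genes called in R1 against control, R2 against control and R2 against R1) and DESeq2 1.42.0 on recovered reads. The regulators and gene lists were chosen with earlier results of these data known. All 10 were named, with up to 2 called genes of largest change (mean of at least 1) per pathway list and comparison, the 2 genes nearest in pattern and the nearest listed neighbours; EVI2B and CCNH are such neighbours. Other alternatives were pseudocounts, a filter, scalings, a replicate block and leaving out each library. RefSeq positions matched 94.4% of rows. Replicates of a group differed beyond sampling noise (chi-square per degree of freedom 11.3 to 114). Results for some listed genes are not reported here.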

Additional observations from a re-analysis of the deposited data

Results flagged for a closer look

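In 30 sets of 4 libraries (10 genes in 3 groups), 2 had a library far from the other 3, where chance gives about 1 in 20. SHC1 was 421 in R1 replicate 2, against 308 to 326 in the other R1 libraries. RASA2 was 24.3 in control replicate 3, against 31.4 to 32.1 in the other control libraries. The difference from control was not the same in R2 as in R1 for 5 genes by limma's R2 against R1 comparison, in which the control libraries enter only the estimate of the spread. The log2 difference was 1.22 for SOS1, 0.45 for NF1, 0.56 for RASA1, -0.74 for SPRED1 and 0.27 for SPRED2, the last with a call that most alternatives lost.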

How the results depend on the processing

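The 30 log2 fold changes of the 10 regulators were recomputed under 23 alternatives, giving 690 values. None reversed a call, 25 lost one and 17 gained one. Of the 13 calls, 10 held under all 23 alternatives, and the exceptions were NF1 in R1, SOS1 in R2 against control and SPRED2 in R2 against R1. With quantile normalization 5 regulators were called in R1 against control in place of 3, as RASA2 (adjusted p = 0.0454) and GRB2 (adjusted p = 0.0284) were added; the cause was not tested. Leaving out 1 library at a time gave 2 to 4, 4 to 5 and 4 to 5 called regulators in R1 against control, R2 against control and R2 against R1. Replicate numbers were not taken as pairs, since deviations of same-numbered libraries correlated from -0.31 to 0.39 and 4 of 12 libraries correlated best with their own number. With the replicate number as a block 4, 5 and 4 regulators and 5798, 3733 and 6162 genes were called. No scaling moved the median of all genes by over 0.1.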
